A study of Mus musculus with 3 samples.

Results

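The endothelin system was examined as 5 genes of the 28692 in the deposited feature list, chosen by their symbols: the ligand genes *Edn1* and *Edn3*, the converting enzyme gene *Ece1* and the receptor genes *Ednra* and *Ednrb*. They were measured by droplet single-cell RNA-Seq (scRNA-Seq), which counts captured messenger RNAs per cell by their unique molecular identifiers (UMIs), in whole lungs, dissociated at P14 (postnatal day 14), of 3 mice of the C57BL/6 strain. All were wild-type and breathed room air from day 1 to day 14 of life. The mice are called RA2, RA3 and RA4 here, each gave 1 library, and the design holds no treated or mutant group, so each comparison below is between cell types of the same 3 lungs. The study sequenced these lungs to see which lung cells express a given gene.

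Endothelins are short vasoactive peptides that are made as inactive precursors and cut to their active form by endothelin-converting enzyme. The active peptides bind 2 G protein-coupled receptors: EDNRA, which on vascular smooth muscle couples to calcium release and contraction, and EDNRB, which on endothelium couples to nitric oxide release and also takes up and removes circulating endothelin-1. EDNRA binds endothelin-1 with far higher affinity than endothelin-3, whereas EDNRB binds both about equally, and in the lung the system is best known for its part in pulmonary vascular tone.

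The 5 genes lie on 5 chromosomes of the mouse genome (GRCm38, GENCODE M21). *Edn1* (ENSMUSG00000021367) spans chr13:42301476-42307990 on the plus strand, with 1 transcript of 5 exons. *Edn3* (ENSMUSG00000027524) spans chr2:174760619-174784042 on the plus strand. *Ece1* (ENSMUSG00000057530) spans chr4:137862237-137965229 on the plus strand. *Ednra* (ENSMUSG00000031616) spans chr8:77663031-77724464 and *Ednrb* (ENSMUSG00000022122) chr14:103814625-103844402, both on the minus strand. An annotated gene on the other strand touches an exon of *Edn1* and of *Ednra*, and another, *Gm13012*, lies in an intron of *Ece1* with 181 UMIs of its own. Whether the counting used strand is not given in the sources used here, so reads of these pairs may not have been told apart.

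*Edn1* and *Ednrb* are the members with the widest spread among endothelial cell (EC) subtypes below, so the 250 bases before their RefSeq start sites (GRCm38.p6) are shown, 5′ to 3′ on the strand of the gene. Capitals mark CCAAT or its reverse ATTGG, a short motif of many proximal promoters. The *Edn1* stretch is chr13:42301226-42301475 on the plus strand, and the *Ednrb* stretch is chr14:103843702-103843951 on the minus strand, inside an intron of the longer *Ednrb* transcript.
Edn1: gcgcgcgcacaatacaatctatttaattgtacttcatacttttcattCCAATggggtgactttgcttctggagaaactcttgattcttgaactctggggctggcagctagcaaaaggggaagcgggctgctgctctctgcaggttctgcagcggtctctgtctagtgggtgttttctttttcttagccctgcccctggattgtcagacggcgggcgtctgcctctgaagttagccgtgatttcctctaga
Ednrb: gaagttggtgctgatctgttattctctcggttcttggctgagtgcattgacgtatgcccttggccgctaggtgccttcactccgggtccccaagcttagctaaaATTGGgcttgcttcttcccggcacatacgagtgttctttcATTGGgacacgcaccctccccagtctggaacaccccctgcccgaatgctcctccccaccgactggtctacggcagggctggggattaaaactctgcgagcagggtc
The motif occurred 1 time in the *Edn1* window and 2 times in the *Ednrb* window. Of 32851 promoter windows, each likewise the 250 bases before a start site, 33.8% held it on either strand. The windows of *Edn3* and *Ednra* held none, and 2 of the 4 *Ece1* windows held 2 each. Neither strand of a member's window held AGATAA, which 9.99% of all windows held. The same was so of TGANTCA, found in 6.75% of all windows, and of the box TATAAA, found in 12.4%. ACGTG, or its reverse, occurred in 1 *Ece1* window and in 16.6% of all windows. These matches describe the letters of the windows and no binding was measured. Bases outside the windows were not searched, so a motif missing here may still lie elsewhere in the promoter of a member.

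The deposited tables held 9644 cells, of which 7642 passed a filter (200 or more genes, 20% or fewer UMIs from mitochondrial genes), whereas the series description gives 5677 cells. The total was 22476491 to 25192427 UMIs per library, with a median of 4853 to 7119 UMIs per kept cell. Clusters were named from fixed marker lists, without using the 5 members or the genes of their pathway, and 22 types were named. The 4 major classes held 956 ECs, 1285 epithelial cells, 756 stromal cells and 2954 immune cells. The class of stromal cells held no mural cells, and it lacked 359 myofibroblast-like cells in a cluster led by *Agt*. Mural here means the pericyte-like and smooth muscle-like types. The marker lists did not separate vascular from airway smooth muscle, so smooth muscle-like and mural values may cover both. The pericyte-like, smooth muscle-like and *Agt*-led clusters passed their own lists but no class list. All markers of the arterial-like, venous-like, Car4-type, Aplnr-type, pericyte-like and smooth muscle-like lists were found in at least 10% of the cells of that type, although only 2 of the 5 Aplnr-type markers were highest there. The Col14a1-type cluster (100 cells) had 3 of its 6 markers highest there, and its 10 leading genes held the cartilage genes *Col2a1*, *Col10a1*, *Col11a1* and *Acan* beside the fibroblast genes *Dcn* and *Lum*, so its values, and the mean of the fibroblast types that includes it, also cover cells with cartilage genes. Immune cells were 1398 of the kept cells of RA3, against 684 in RA2 and 872 in RA4, and RA3 also had the lowest median UMIs. The libraries shared 12 barcodes, 8 of them between kept cells, and 156 cells marked as likely doublets were kept. Levels are given as CPM (the UMIs of a gene per 1000000 UMIs, both summed over the cells of a type in 1 mouse), and shares as the share of cells with at least 1 UMI. Intervals are exact 95% binomial intervals and cover counting error only.

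**Figure D1:**
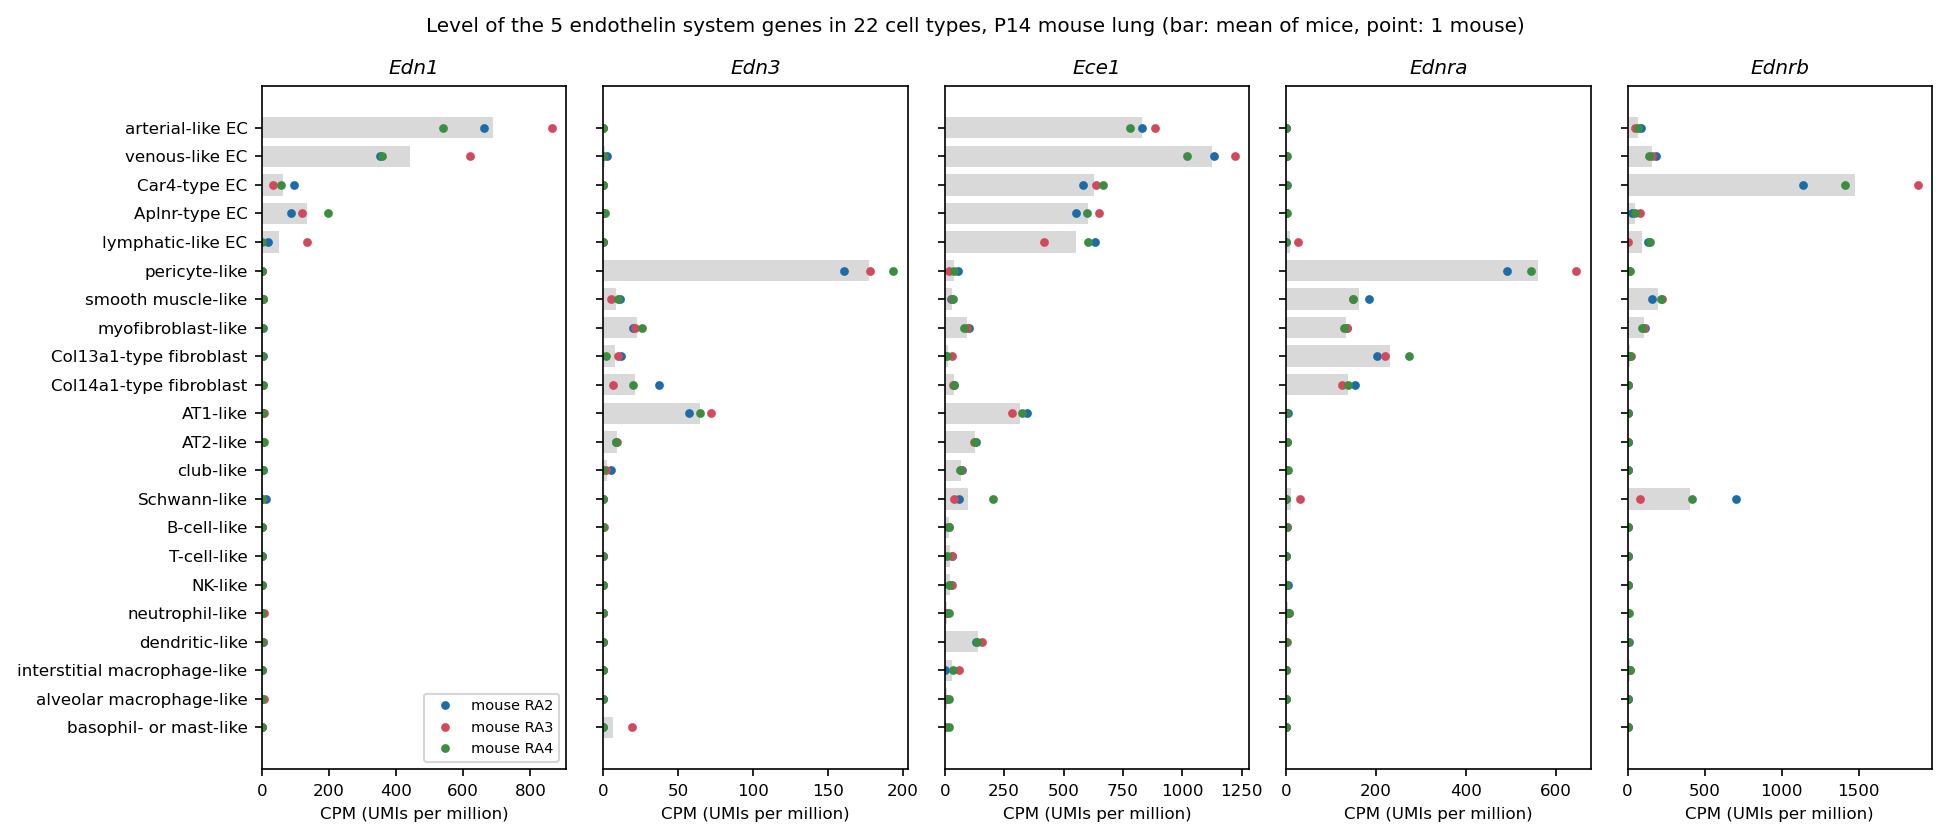
Level of each of the 5 genes (CPM of summed UMIs) in the 22 named cell types, with 1 point per mouse. *Edn1* was highest in arterial-like and venous-like ECs, *Edn3* and *Ednra* in pericyte-like cells, *Ece1* in venous-like ECs and *Ednrb* in Car4-type ECs.

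*Edn1*, the gene of endothelin-1, was an endothelial transcript in these lungs, and ECs held 2267 of its 2458 UMIs. In the EC class it was at 192 CPM in RA2, 286 in RA3 and 240 in RA4 (239 ± 47.1, mean ± SD, n = 3 mice). The means in the other classes were 2.84 CPM in epithelial, 0.948 in stromal and 0.402 in immune cells. The lowest EC value lay far above every value of the other classes. *Edn1* was higher in ECs than in stromal cells by 7.83 ± 0.29 on the log2 scale (± SE, edgeR quasi-likelihood test, Benjamini-Hochberg adjusted p = 1.98e-11), where 54.2% of the 13560 genes tested differed in either direction. It was also higher in ECs than in epithelial cells (log2 difference 5.88, 66.6% of genes called) and immune cells (8.73, 69.9% of genes called). In B-cell-like cells, which should lack the gene, 1 of 1784 cells had an *Edn1* UMI at a median depth of 3960.5 UMIs, whereas 49.1% (45.8 to 52.3) of ECs did at a median of 7600 UMIs.

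Among EC subtypes, *Edn1* was highest in arterial-like and venous-like cells. In arterial-like ECs (59 cells) it was at 662 CPM in RA2, 865 in RA3 and 539 in RA4 (688 ± 165), and 89.8% (79.2 to 96.2) of the cells had a UMI. In venous-like ECs (107 cells) it was at 351, 619 and 356 CPM (442 ± 153), with a UMI in 75.7% of cells. Both lay above the capillary types in every mouse. In Aplnr-type ECs, the general capillary cells (248 cells), *Edn1* was at 85.4, 120 and 195 CPM (133 ± 56.1). In Car4-type ECs, the thin capillary cells that face the airspaces (94 cells), it was at 95.6, 32.6 and 56.6 CPM (61.6 ± 31.8). These 2 capillary types overlapped, and in RA2 the Car4-type value was the higher. A further EC sub-cluster of 189 cells scored highest for the Aplnr-type list (0.51) but was left unnamed for its leading genes. It held 390 of the 2458 *Edn1* UMIs and 3.15% of all UMIs, against 335 and 3.58% in Aplnr-type ECs. The Aplnr-type values and tests in this text therefore cover only part of such cells. Another unnamed EC sub-cluster, of 104 cells, scored highest for the arterial list (1.43). It held 324 *Edn1* UMIs and 1.25% of all UMIs, against 496 and 1.09% in arterial-like ECs. The arterial-like values may thus also cover only part of such cells. With each cell thinned to 1000 UMIs, the expected share with an *Edn1* UMI was 42.7% in arterial-like, 30.9% in venous-like, 11.9% in Aplnr-type and 3.23% in Car4-type ECs, the same order as without thinning.

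The test across EC subtypes covered 7438 genes. *Edn1* was higher in arterial-like than in Aplnr-type ECs by 2.49 ± 0.23 on the log2 scale, or 5.63-fold (edgeR adjusted p = 9.47e-11, 28.4% of genes called). It was higher in arterial-like than in Car4-type ECs by 3.63 (31.8% called), in venous-like than in Car4-type ECs by 2.94 (28.1% called) and in venous-like than in Aplnr-type ECs by 1.80 (20.4% called). The step from venous-like to arterial-like ECs was smaller, 0.69 ± 0.22 (edgeR adjusted p = 0.0242, 17.2% called). The values of these 2 types overlapped, although the arterial-like value was the higher within each of 3 mice. That call was lost with DESeq2 (adjusted p = 0.389), without RA2 (0.0621), with all named types in 1 fit (0.0547) and at a coarser clustering (0.431). *Edn1* was lower in Car4-type than in Aplnr-type ECs by a log2 difference of -1.14 ± 0.31 (edgeR adjusted p = 0.00912, 16.4% called), a call lost without RA3 (0.0896), without RA4 (0.308) and with DESeq2 (0.119). The other 11 alternatives passed, with differences of up to -4.18 with log-normalization and -1.90 without RA2.

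Outside these subtypes, lymphatic-like ECs (23 cells) had *Edn1* at 19, 135 and 0 CPM in the 3 mice, a spread too wide for a level. Pericyte-like cells had no *Edn1* UMI in 133 cells. Smooth muscle-like cells had 11 UMIs in 291 cells.

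*Edn3*, the gene of endothelin-3, had its highest levels in pericyte-like and AT1-like cells. Of its 779 UMIs, 200 lay in the more numerous myofibroblast-like cells. In pericyte-like cells (133 cells), which wrap capillaries, it was at 161, 178 and 194 CPM in RA2, RA3 and RA4 (178 ± 16.5), and 45.9% (37.2 to 54.7) of the cells had a UMI. In AT1-like cells (166 cells), the flat epithelium of gas exchange, it was at 56.9, 72.0 and 64.5 CPM (64.5 ± 7.53), with a UMI in 49.4% of cells. In myofibroblast-like cells it was at 22.2 ± 3.21 CPM. The pericyte-like cells formed a cluster of 91 cells, at 184 ± 24.1 CPM, and another of 42 cells at low depth (median 741 UMIs), which held 5 *Edn3* UMIs. The 3 types did not overlap, and both leading types lay well above B-cell-like cells, in which 1 of 1784 cells had an *Edn3* UMI.

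*Edn3* was higher in pericyte-like than in smooth muscle-like cells (8.47 ± 3.19 CPM) by 4.21 ± 0.35 on the log2 scale, or 18.4-fold (edgeR adjusted p = 4.99e-09, 32.7% of the 9711 genes tested called). It was higher in pericyte-like than in myofibroblast-like cells by 2.98 (29% called). Among epithelial types, it was higher in AT1-like than in AT2-like cells, the surfactant-making epithelium (8.74 ± 0.442 CPM), by 2.59 ± 0.21, or 6.04-fold (edgeR adjusted p = 1.27e-07, 43.6% of 9299 genes called). The AT1-like cells formed 2 clusters: 129 cells with a median of 6208 UMIs, at 82.1 ± 6.58 CPM, and 37 cells with a median of 35994 UMIs, at 49.8 ± 14.6 CPM. Over 14 alternatives the difference between AT1-like and AT2-like cells lay between 2.53 and 2.86. Leaving out marked doublets was among them.

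In the EC class *Edn3* was near 0 (1.80 ± 1.05 CPM), and arterial-like (59 cells) and Car4-type ECs (94 cells) had no UMI. Of the 17 *Edn3* UMIs in ECs, 15 lay in a sub-cluster of 60 cells whose leading genes included stromal genes. *Edn3* was lower in ECs than in epithelial cells (14.4 ± 1.27 CPM) by a log2 difference of -3.47 ± 0.35 (edgeR adjusted p = 4.26e-07), and by -6.29 without that sub-cluster. Of the other stromal types, Col14a1-type cells, with their cartilage genes, had it at 37.4, 6.29 and 19.6 CPM and Col13a1-type cells at 11.4, 9.71 and 1.41 CPM. These overlapped, and the difference did not pass the threshold (log2 difference -1.47, edgeR adjusted p = 0.0698, 26.5% called). It passed with DESeq2 (0.0195), with no low-count filter (0.00887) and without RA3 (0.00892).

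*Ece1*, the gene of the enzyme that activates both ligands, was the most widespread member, with 12253 UMIs and a UMI in 37.2% of all kept cells. In venous-like ECs it was at 1133, 1221 and 1022 CPM in RA2, RA3 and RA4 (1125 ± 99.9). In arterial-like ECs it was at 831, 885 and 781 CPM (832 ± 51.6). Car4-type (629 ± 41.4) and Aplnr-type ECs (602 ± 48.0) followed. The venous-like values lay above the arterial-like, and the arterial-like above both capillary types, without overlap, while the 2 capillary types overlapped.

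*Ece1* was higher in the EC class (727 ± 56.3 CPM) than in stromal cells (83.0 CPM) by 3.03 ± 0.11 on the log2 scale, or 8.17-fold (edgeR adjusted p = 1.22e-11). It was also higher in ECs than in epithelial cells (1.88) and immune cells (4.23). Within ECs, it was higher in venous-like than in Aplnr-type cells by 1.02 ± 0.12 (edgeR adjusted p = 2.49e-08). It did not pass the threshold between Car4-type and Aplnr-type cells (0.08 ± 0.12, edgeR adjusted p = 0.768). Arterial-like cells were lower than venous-like by a log2 difference of -0.38 ± 0.12 (edgeR adjusted p = 0.0281). That call was lost without RA2 (0.117), without RA3 (0.137), without RA4 (0.0993) and with all named types in 1 fit (0.140).

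Among the named types outside ECs, AT1-like cells had the highest *Ece1*, 345, 282 and 324 CPM (317 ± 32.0), against 127 ± 3.34 in AT2-like cells, with no overlap. The log2 difference was 1.06 ± 0.12 (edgeR adjusted p = 4.33e-06). Dendritic-like cells had it at 142 ± 13.9 CPM. In B-cell-like cells 6.17% (5.09 to 7.38) had an *Ece1* UMI, against 89.9% of ECs. *Ece1* was lower in Col13a1-type than in Col14a1-type cells by a log2 difference of -1.23 ± 0.45 (edgeR adjusted p = 0.0498). That call was lost with the mouse as a block (0.0597), without RA2 (0.270) and without RA4 (0.319). It was also lost without TMM (0.0627), with the stricter cell filter (0.0640), with log-normalization (0.108) and without the low-depth pericyte-like cluster (0.0622).

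**Figure D2:**
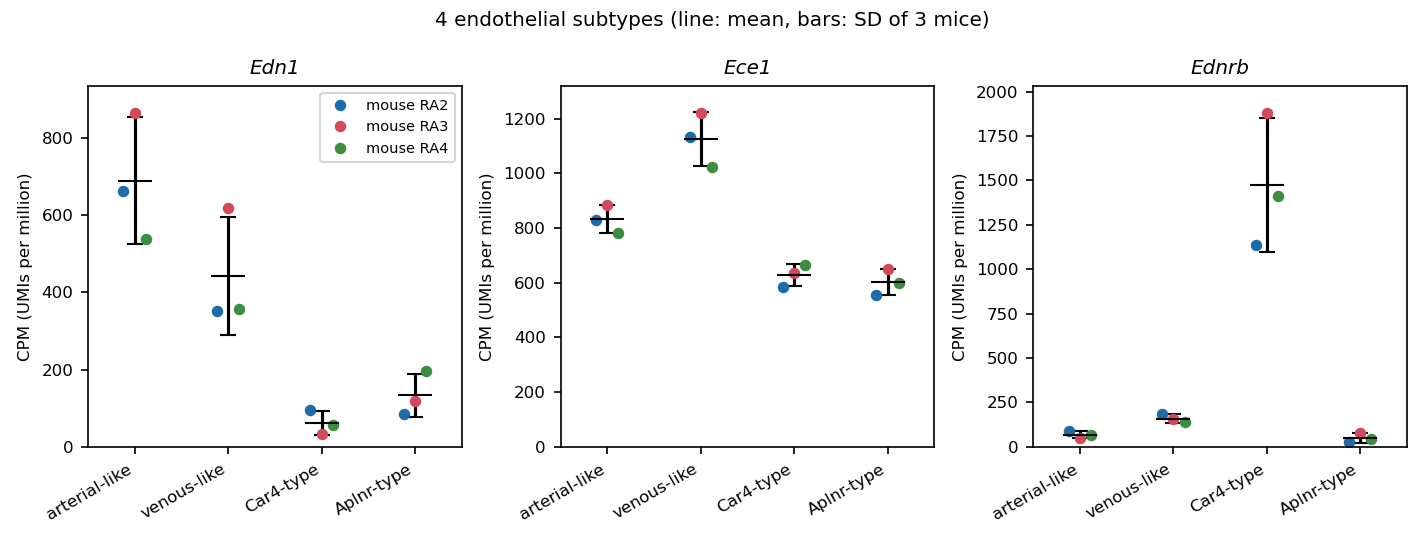
*Edn1*, *Ece1* and *Ednrb* in the 4 EC subtypes tested (CPM of summed UMIs), with 1 point per mouse and bars for the mean ± SD of 3 mice. *Edn1* was highest in arterial-like (688 CPM), *Ece1* in venous-like (1125 CPM) and *Ednrb* in Car4-type ECs (1476 CPM).

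*Ednra*, the gene of the receptor EDNRA, was found across stromal and mural types, with 3129 UMIs in all. In pericyte-like cells it was at 491, 646 and 546 CPM in RA2, RA3 and RA4 (561 ± 78.5), and 69.9% (61.4 to 77.6) of the cells had a UMI. In Col13a1-type fibroblasts (210 cells) it was at 202, 221 and 274 CPM (232 ± 37.1). In smooth muscle-like cells (291 cells) it was at 185, 149 and 149 CPM (161 ± 20.7). The pericyte-like values lay above those of every other named type. Col14a1-type cells (138 ± 14.9) and myofibroblast-like cells (805 cells, 134 ± 3.92) followed, the smooth muscle-like values overlapping with those of Col14a1-type cells.

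*Ednra* was higher in pericyte-like than in smooth muscle-like cells by 1.64 ± 0.14 on the log2 scale, or 3.13-fold (edgeR adjusted p = 5.41e-09). It was higher in pericyte-like than in myofibroblast-like cells by 2.06 ± 0.14 (edgeR adjusted p = 1.36e-10). The mean of the 2 mural types exceeded that of the 3 fibroblast types by 0.84 ± 0.09 (edgeR adjusted p = 1.77e-07, 32% of genes called). Of the mural types, only pericyte-like cells lay above Col13a1-type fibroblasts, and smooth muscle-like cells lay below them in every mouse. Col13a1-type fibroblasts had more than Col14a1-type cells (0.66 ± 0.15, edgeR adjusted p = 0.00191), a call lost without RA4 (0.0576).

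*Ednra* was higher in the stromal class (168 ± 6.82 CPM) than in ECs (6.33 ± 3.32 CPM) by 4.76 ± 0.19, or 27-fold (edgeR adjusted p = 4.47e-11). Of the 64 *Ednra* UMIs in ECs, 54 lay in the sub-cluster of 60 cells with stromal genes, and the difference was 7.29 without that sub-cluster. Arterial-like ECs had no UMI in 59 cells and Car4-type ECs had 1 in 94 cells. Epithelial (1.04 CPM) and immune cells (1.01 CPM) were as low as B-cell-like cells (0.907 CPM).

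*Ednrb*, the other receptor gene, was led by a single capillary type, and Car4-type ECs held 1688 of its 4599 UMIs in 94 cells. It was at 1136 CPM there in RA2, 1881 in RA3 and 1409 in RA4 (1476 ± 377), and 94.7% (88.0 to 98.2) of the cells had a UMI. In Aplnr-type ECs it was at 25.5, 78.9 and 45.0 CPM (49.8 ± 27), with a UMI in 18.1% of cells. The lowest Car4-type value lay far above the highest Aplnr-type value. Thinned to 1000 UMIs per cell, 71.0% of Car4-type and 2.83% of Aplnr-type ECs would have had a UMI. In B-cell-like cells 0.280% (0.0911 to 0.653) had one.

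The difference between Car4-type and Aplnr-type ECs was 5.04 ± 0.22 on the log2 scale, or 32.8-fold (edgeR adjusted p = 3.33e-18), and lay between 4.86 and 5.15 with any 1 mouse left out. *Ednrb* was also lower in arterial-like ECs than in Car4-type ECs (-4.31) and higher in Car4-type than in venous-like ECs, at 8.63-fold. Venous-like ECs came second among the subtypes tested, at 184, 155 and 137 CPM (159 ± 23.5), above arterial-like ECs at 87.2, 48.0 and 67.8 CPM (67.7 ± 19.6). These groups did not overlap, and the log2 difference of arterial-like from venous-like ECs was -1.20 ± 0.30 (edgeR adjusted p = 0.00313), which a coarser clustering moved to -0.24 (0.608). Venous-like ECs exceeded Aplnr-type ECs by 1.93 ± 0.25 (edgeR adjusted p = 2.23e-07). Arterial-like and Aplnr-type ECs overlapped, and their difference of 0.73 ± 0.34 did not pass (edgeR adjusted p = 0.116), although it did in 5 of 14 alternatives: without RA3 (1.23, adjusted p = 0.00944), at resolution 0.4 (1.69) and 1.2 (0.86), with log-normalization (1.29) and with the members allowed for clustering (0.84). Without RA2 it was 0.20.

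Among the EC subtypes, *Edn1* and *Ednrb* thus had different leaders. Both transcripts were found in 46 of 107 venous-like ECs, 21 of 94 Car4-type ECs, 23 of 248 Aplnr-type ECs and 11 of 59 arterial-like ECs. In Car4-type ECs 22 cells had *Edn1* and 89 had *Ednrb*. These counts were 81 and 55 in venous-like, 117 and 45 in Aplnr-type and 53 and 13 in arterial-like ECs. The joint counts follow from how often each gene was found, and a link between the genes within cells was not tested. An *Ece1* UMI was found in 59 of 59 arterial-like ECs, whether or not *Edn1* was.

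As a class, ECs had *Ednrb* at 211, 379 and 243 CPM (278 ± 89.4) and stromal cells at 121, 97.5 and 112 CPM (110 ± 11.7), without overlap. The stromal class held the *Aspn*-led myofibroblast-like cluster (891 *Ednrb* UMIs in 446 cells) but not the *Agt*-led one (31 in 359 cells). The log2 difference was 1.23 ± 0.17 (edgeR adjusted p = 2.15e-05). RA3, with the highest EC value, was also the library with the most immune and the fewest EC cells. Car4-type cells were 34 of its 229 ECs, against 27 of 365 in RA2 and 33 of 362 in RA4. The part of these counts in the value was not tested. Arterial-like and Aplnr-type ECs lay below the stromal values. Without RA3 the difference was 0.85. Epithelial (0.634 CPM) and immune cells (1.77 CPM) were near the B-cell-like level of 0.669 CPM, and no AT1-like cell of 166 had a UMI.

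Outside the endothelium, the pattern of *Ednrb* crossed that of *Ednra*. Smooth muscle-like cells had *Ednrb* at 159, 226 and 215 CPM (200 ± 36.0), and 47.1% (41.2 to 53.0) of them had a UMI. Pericyte-like cells had it at 7.32 ± 7.97 CPM, 5 UMIs in 2 of 133 cells. The groups did not overlap, and *Ednrb* was lower in pericyte-like than in smooth muscle-like cells by a log2 difference of -5.03 ± 0.46 (edgeR adjusted p = 1.60e-08), while *Ednra* was higher there. Pericyte-like cells were also lower than myofibroblast-like cells (-3.96 ± 0.51, edgeR adjusted p = 2.96e-06), a call lost with log-normalization (0.0657). The mural and fibroblast means did not differ past the threshold (1.40 ± 0.62, edgeR adjusted p = 0.0912), and the difference lay between 0.33 without RA4 (adjusted p = 0.883) and 3.15 without RA2 (adjusted p = 0.00415). It also passed with DESeq2 (0.0142), with no low-count filter (0.0254), at resolution 0.4 (0.0270) and with log-normalization (0.0149).

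**Figure D3:**
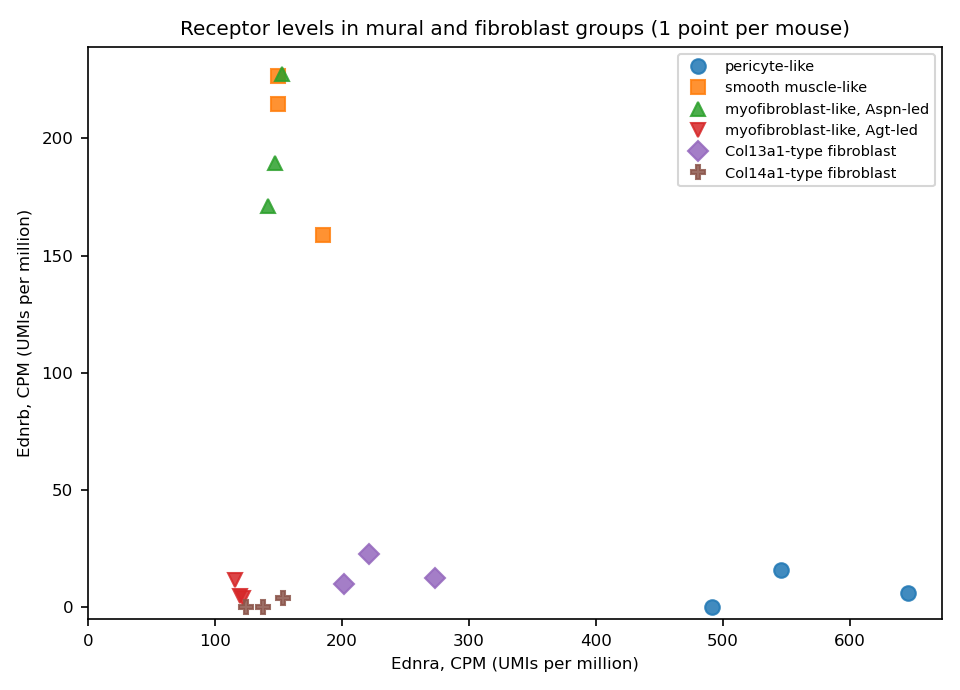
*Ednra* (x axis) against *Ednrb* (y axis) in 6 stromal and mural groups, both in CPM of summed UMIs, with 1 point per mouse. Pericyte-like cells lie at the right with the highest *Ednra* (561 CPM) and almost no *Ednrb* (7.32 CPM), and smooth muscle-like cells at 161 CPM *Ednra* and 200 CPM *Ednrb*.

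The fibroblast types carried *Ednrb* unevenly. Col13a1-type fibroblasts had 15.0 CPM and Col14a1-type cells 1.39 CPM, a log2 difference of 3.38 ± 0.91 (edgeR adjusted p = 0.00773) that was lost without RA3 (2.08, adjusted p = 0.238). Myofibroblast-like cells had 113, 106 and 94.2 CPM (104 ± 9.57), but they were made of 2 clusters. In the cluster led by *Aspn*, a matrix gene (446 cells), *Ednrb* was at 190, 228 and 171 CPM (196 ± 28.8). In the cluster led by *Agt*, the angiotensinogen gene (359 cells), it was at 4.73, 4.14 and 11.5 CPM (6.79 ± 4.09). Every value of the *Aspn*-led cluster lay far above every value of the *Agt*-led cluster, whereas *Ednra* was at 147 ± 5.38 and 119 ± 3.2 CPM in the same clusters. This pair was not tested, since the design had no contrast for it.

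Within types, *Ednrb* was also concentrated in few cells. In the *Aspn*-led cluster, 51 cells with 5 or more *Ednrb* UMIs, 11.4% of the cluster, held 87.5% of its *Ednrb* UMIs, and 326 of 446 cells had none. Of these 51 cells, 42 belonged to an *Actc1*-led group that another clustering set apart and that scored highest for the smooth muscle list (see Other observations). The *Ednrb* values of the *Aspn*-led cluster thus rest largely on cells whose type name depends on the clustering. In smooth muscle-like cells, 61 cells with 5 or more, 21% of the type, held 80.6%. In Car4-type ECs 84 of 94 cells had 5 or more. So the transcript was spread over nearly every Car4-type EC and over a minority of smooth muscle-like and myofibroblast-like cells, and each mouse contributed to each of these minorities (13 to 19 cells in the *Aspn*-led cluster and 19 to 21 in smooth muscle-like cells). *Ednra* in smooth muscle-like cells was less concentrated, 41.5% of its UMIs lying in cells with 5 or more.

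**Figure D4:**
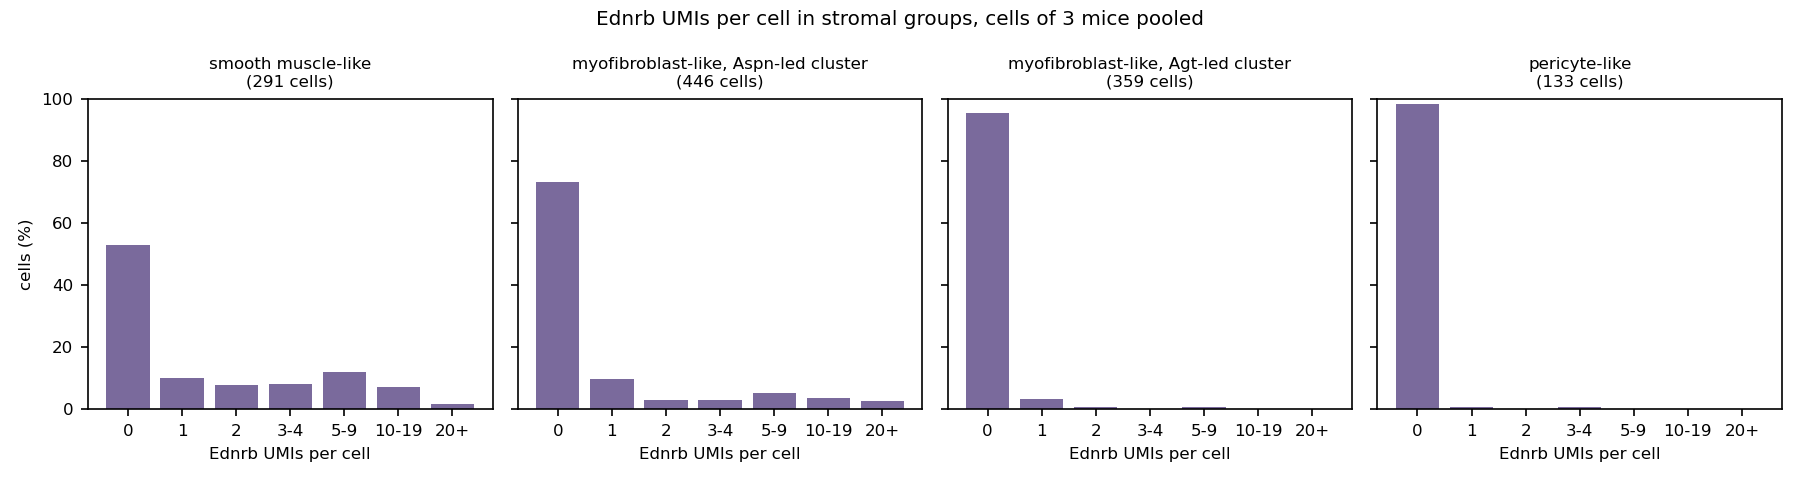
Number of *Ednrb* UMIs per cell in smooth muscle-like cells, the *Aspn*-led and *Agt*-led myofibroblast-like clusters and pericyte-like cells, with the cells of 3 mice pooled. Cells with 5 or more UMIs were 61 of 291 smooth muscle-like cells and 51 of 446 cells of the *Aspn*-led cluster. They were 2 of 359 cells of the *Agt*-led cluster and 0 of 133 pericyte-like cells. Car4-type ECs are not drawn.

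Both receptor transcripts were found in single cells of the contractile types. In smooth muscle-like cells 220 of 291 had *Ednra*, 137 had *Ednrb* and 97 had both. In myofibroblast-like cells 551 of 805 had *Ednra*, 136 had *Ednrb* and 110 had both. Cells rich in *Ednrb* differed in *Ednra* by type, in a split chosen after the values were seen. In smooth muscle-like cells *Ednra* was at 192, 106 and 105 CPM in cells with 5 or more *Ednrb* UMIs and at 206, 179 and 199 CPM in cells with none, lower in 3 of 3 mice although the ranges overlapped. In the *Aspn*-led cluster it was at 181, 209 and 178 CPM against 134, 136 and 111 CPM, higher in 3 of 3 mice with no overlap. There, 42 of the 51 *Ednrb*-rich cells were of the *Actc1*-led group.

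A receptor and a ligand were also found together. In pericyte-like cells *Ednra* was found in 93, *Edn3* in 61 and both in 55 of 133 cells. This pair was not particular to them. Of the cells with *Edn3*, *Ednra* was found in 28 of 31 smooth muscle-like, 12 of 13 Col13a1-type, 12 of 14 Col14a1-type and 100 of 146 myofibroblast-like cells. Of all cells of these types, it was found in 220 of 291, 142 of 210, 62 of 100 and 551 of 805. In myofibroblast-like cells the share was thus the same with *Edn3* as over all cells, and the other types had few cells with *Edn3*. The pericyte-like cells include 42 of low depth (median 741 UMIs), and the part of depth in the overlap was not tested.

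Schwann-like cells (28 cells), which wrap peripheral nerves and descend from the neural crest, where *Ednrb* acts in development, had *Ednrb* at 706, 82.2 and 421 CPM in RA2, RA3 and RA4 (403 ± 312). The values rest on 8 to 11 cells per mouse and spread widely. All 4 Schwann markers were found in these cells. Their 10 leading genes also held *Uchl1*, *Pcsk1n*, *Sncg*, *Prph*, *Stmn3* and *Fxyd7*, which are not on the Schwann list. With the members allowed for clustering, those genes led another cluster than the Schwann-like one, so the values may also cover RNA of other cells.

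**Figure D5:**
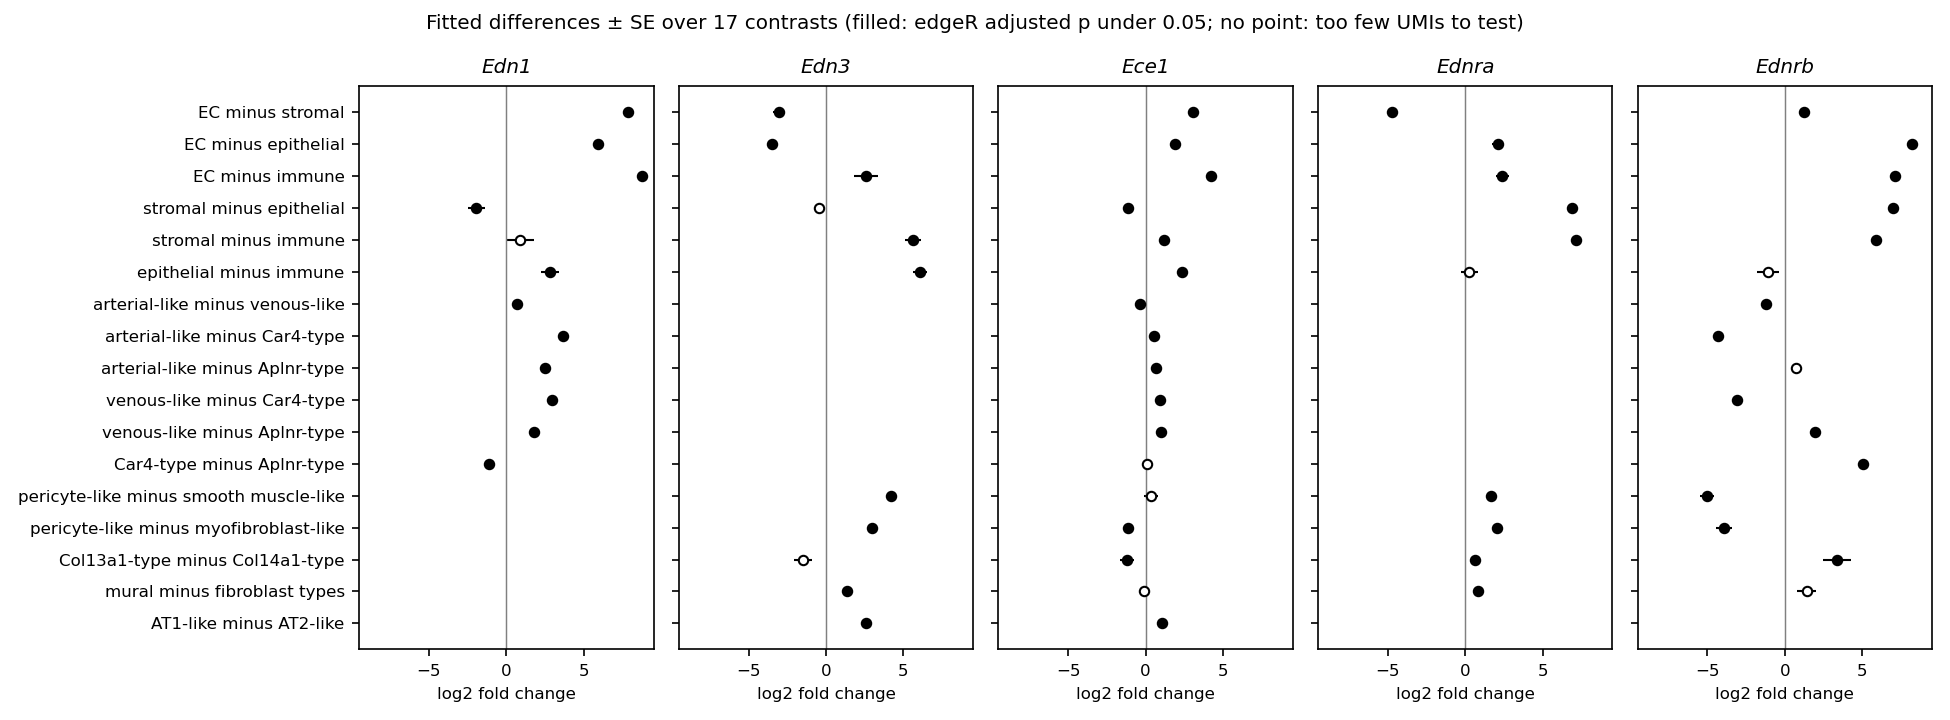
Fitted log2 difference ± SE of each member in the 17 comparisons of cell types, with filled points for an adjusted p under 0.05 (edgeR quasi-likelihood test). *Ednrb* in Car4-type minus Aplnr-type ECs stands at 5.04 and *Ednra* in EC minus stromal cells at -4.76.

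Across the 17 comparisons, 56 of 66 tests of a member passed the threshold. This is read against shares of 16.4% to 75.1% of all genes called in the same comparisons (64%, 74.8% and 75.1% between stromal and epithelial, stromal and immune, and epithelial and immune cells), and among the 4 major classes, where most genes differed, a passed test sets a member little apart. Between Car4-type and Aplnr-type ECs, where 16.4% of genes were called, *Ednrb* and *Edn1* of the 3 members tested passed and *Ece1* did not. The filter on low counts kept all 5 members among the classes. Among EC subtypes it removed *Edn3* and *Ednra*, among stromal types *Edn1*, and among epithelial types every member but *Edn3* and *Ece1*.

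The rest of the pathway was taken as a list of 23 genes. *Edn2*, the gene of the other endothelin, had 1 UMI over the 22 named types, in a club-like cell, and *Kel*, another converting enzyme, had none. Between ECs and stromal cells, 14 of 21 genes tested were higher and 5 lower in ECs, with a median log2 difference of 0.77, against -0.01 over all genes, of which 26.2% were higher and 28% lower. *Itpr3*, a calcium channel of the endoplasmic reticulum (3.52), *Plcb1*, a phospholipase downstream of Gq (2.68), and *Prkce*, a protein kinase C (2.47), were higher. *Mme*, the gene of neprilysin, which degrades endothelins (-4.47), *Prkca* (-2.96) and *Mylk*, the myosin light chain kinase (-2.57), were lower. Of the 488 *Mme* UMIs in the stromal class, 436 lay in Col13a1-type and 52 in Col14a1-type cells.

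Between Car4-type and Aplnr-type ECs, 4 of 17 pathway genes were higher and 5 lower. Those higher in Car4-type ECs included *Mylk* (1.47), *Gna11*, a G protein of the Gq family (0.65), and *Prkce* (0.57). *Plcb1* (-1.63), *Plcb4* (-0.95), *Itpr3* (-0.87), *Arrb1*, an arrestin that takes part in receptor internalization (-0.85), and *Itpr2* (-0.81) were lower. The list thus did not move one way where *Ednrb* differed 32.8-fold. Its median was 0.08, and over all genes 8.28% were higher and 8.15% lower.

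Between mural and fibroblast types, 10 of 18 pathway genes were higher and 2 lower, with a median of 0.40 against -0.02 over all genes, of which 14.6% were higher and 17.5% lower. Those higher in mural types included *Plcb1* (1.65), *Plcb4* (1.54) and the receptor kinase gene *Adrbk1*, now named *Grk2* (1.28). *Mme* (-4.13) and *Arrb1* (-2.43) were lower. *Mme* was not a trait of all fibroblast types. It was at 190 CPM in Col13a1-type and 34.0 CPM in Col14a1-type cells. In myofibroblast-like cells it was at 0.402 CPM, against 0.502 in smooth muscle-like and 1.32 in pericyte-like cells. Between the mural types, pericyte-like cells had more *Itpr2* (2.43), *Prkca* (2.42) and *Grk5*, a receptor kinase (1.54), and less *Plcb4* (-2.39), *Itpr1* (-1.47) and *Mylk* (-1.18) than smooth muscle-like cells.

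Finally, the genes whose pattern over the 22 types was most like each member were listed from 12569 genes, by Pearson correlation of log2(CPM + 5) over types, as a description with no test, since the types share libraries. *Samd12* (r = 0.976), *Lyve1* (0.971), *Acer2* (0.961), *Nos3* (0.949), the endothelial nitric oxide synthase gene, and *Cyp26b1* (0.940) were nearest to *Edn1*. *Wisp1* (0.980), *Tbx5* (0.974), *Ism1* (0.973), *Mamdc2* (0.971) and *Dkk3* (0.970) were nearest to *Ednra*. For *Edn3*, *Ednrb* and *Ece1* the nearest genes were *Fras1* (0.869), *Cep85l* (0.873) and *Mansc1* (0.920).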

How the data were processed

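Whole-lung cells of 3 mice were captured with the 10x 3′ v3 chemistry, and per the labels 16000 cells were loaded per library. The authors made the deposited counts, whole-number UMI counts per gene and cell, with Cell Ranger 3.0.2 on mm10 according to the submitters' processing notes. A cell was kept if it had 200 genes or more and no more than 20% of UMIs from mitochondrial genes (7642 of 9644). Libraries held 22476491 to 25192427 UMIs. Cells were clustered with SCTransform (Seurat 5.3.0, R 4.3.3, 3000 variable genes, 30 components, resolution 0.8), and ECs again with 20 components. The 5 members and 23 pathway genes were left out of the variable genes, but genes that vary with them were not. A class name needed the highest mean log2 fold of its marker list, at least 1, with 3 markers each in 10% of cells, and EC subtypes at least 0.5. Pericyte-like, smooth muscle-like, *Agt*-led myofibroblast-like, alveolar macrophage-like and Schwann-like clusters were named by their type list alone, a choice made after the clusters were seen. The members were named by symbol, pathway genes by a fixed list, and like genes as the 5 with the highest r among genes of at least 20 CPM in a type.

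UMIs were summed per mouse and type (at least 10 cells) and tested with the edgeR 4.0.16 quasi-likelihood test (TMM, filterByExpr, Benjamini-Hochberg over all genes tested, threshold 0.05). DESeq2 1.42.0 was an alternative. P-values rest on the spread between the sums of 3 mice, with 1 estimate of the spread shared by all groups in a fit. The main fit did not pair the sums by mouse. CPM were computed here from the deposited counts. All sums of a mouse share the animal, and their deviations from the type means correlated at 0.0197 to 0.186 (18 pairs, median 0.0745), against -0.126 to 0.0396 between mice. The edgeR fit was run on simulated data for 2 comparisons only, EC minus stromal cells and Car4-type minus Aplnr-type ECs. It recovered 90.2% and 59.1% of the changes of 1 on the log2 scale. DESeq2, the mouse block and the other comparisons were not simulated. The members and lists were chosen with earlier results of these data known. Doublets were marked against simulated pairs and left out only in an alternative. Neither a genome sequence nor a protein table was used here.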

Additional observations from a re-analysis of the deposited data

Results flagged for a closer look

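The 2002 cells left out by the filter entered no comparison above, and all 5 members gave UMIs there, above the level that 3 counts would give (0.616 CPM over these cells). *Edn1* was at 7.81 CPM (38 UMIs), *Edn3* at 3.49 CPM (17 UMIs), *Ednra* at 6.78 CPM (33 UMIs), *Ednrb* at 7.19 CPM (35 UMIs) and *Ece1* at 41.7 CPM (203 UMIs). Each was below its mean over all kept cells, which was 36.9, 11.6, 46.9, 69.2 and 184 CPM in the same order.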

How the results depend on the processing

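The 8 comparisons fixed for the members stayed past the threshold in the same direction under each alternative run for them (DESeq2, no TMM, no low-count filter, a stricter cell filter, other clusterings, doublets left out, 1 mouse left out and 3 alternatives chosen after seeing the data). With 1 mouse left out, *Edn1* in EC minus stromal cells lay between 7.39 and 8.75, *Ednrb* between 0.85 and 1.47, *Ece1* between 2.90 and 3.14, *Ednra* in stromal minus EC between 4.55 and 5.29 and *Edn3* in EC minus epithelial cells between -3.77 and -3.06 (-6.29 in ECs without the sub-cluster with stromal genes). Likewise *Ednrb* in Car4-type minus Aplnr-type ECs lay between 4.86 and 5.15, *Edn1* in arterial-like minus Aplnr-type ECs between 2.21 and 3.12 and *Ednra* in mural minus fibroblast types between 0.76 and 0.90. The number of member tests past the threshold ranged from 49 (without RA4) to 58 (no low-count filter), against 56 of 66, where all comparisons could be made, and was 47 of 57 with log-normalization.

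Other differences turned in sign. When the EC class was taken without its sub-cluster of 60 cells with stromal genes, an alternative chosen after seeing the data, *Ednra* was at -0.42 in EC minus epithelial and -0.15 in EC minus immune cells, and *Edn3* at -0.22 in EC minus immune cells, from 2.12, 2.39 and 2.60. The rest had not passed the threshold. *Edn3* in stromal minus epithelial cells went from -0.45 to 0.047 at resolution 0.4 and 0.35 where the mural types and the *Agt*-led cluster joined the stromal class. *Edn1* in stromal minus immune cells ranged from -0.0079 without RA2 to 1.65 without RA3. *Ednra* in epithelial minus immune cells was -0.35 without RA4 and -1.06 without doublets. *Ece1* in Car4-type minus Aplnr-type ECs was -0.10, -0.24, -0.053 and -0.11 at resolutions 0.4 and 1.2, with log-normalization and with members allowed for clustering. *Ece1* in pericyte-like minus smooth muscle-like cells ranged from -0.18 without RA2 to 0.54 without RA3 and was -0.21 with the stricter filter and -0.27 without doublets. *Ece1* in mural minus fibroblast types ranged from -0.41 without RA2 to 0.42 without RA3. The cause was not tested. Log-normalization gave no venous-like cluster, and *Ednrb* in mural minus fibroblast types could not be fitted under the stricter filter.

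With the mouse as a replicate block, 55 of the 66 tests passed, against 56 without the pairing, and the call it lost was that of *Ece1* in Col13a1-type minus Col14a1-type cells (-1.22, edgeR adjusted p = 0.0597). Without TMM the median of all genes moved to 0.51 in EC minus epithelial cells, and the calls there split into 7256 higher and 2939 lower, against 4641 and 4396 with TMM. In AT1-like minus AT2-like cells the split was 2777 to 1206, against 1915 to 2137. In EC minus immune cells it was 5653 to 3627, against 4683 to 4797, and in stromal minus epithelial cells 6617 to 2843, against 4394 to 4291. In arterial-like minus Aplnr-type ECs it was 865 to 1331, against 1120 to 995, in arterial-like minus Car4-type ECs 993 to 1425, against 1234 to 1132, and in venous-like minus Aplnr-type ECs 716 to 882, against 852 to 668.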

Other observations

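*Ednrb* in myofibroblast-like cells also differed by *Hhip*, a Hedgehog-binding gene of the myofibroblast list, in a split chosen after the values were seen. *Hhip* is among the leading genes of the *Aspn*-led cluster, so this split overlaps that between the *Aspn*-led and *Agt*-led clusters and is no separate result. The 384 cells with an *Hhip* UMI had *Ednrb* at 209, 229 and 227 CPM (221 ± 11, n = 3 mice), and the 421 cells without one at 7.55, 2.49 and 2.81 CPM (4.28 ± 2.83), with no overlap. Depth ran the other way, with a median of 9898.5 UMIs per cell with *Hhip* and 11421 without. *Ednra* was at 163 ± 4.77 and 109 ± 5.01 CPM in the same cells.

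With log-normalization in place of SCTransform, the clustering, made without the members, set apart 52 cells led by *Actc1*, *Hhip* and *Cnn1*, all of them from the *Aspn*-led cluster. *Actc1* and *Cnn1* encode a cardiac-type actin and calponin, proteins of contractile cells. Of the stromal type lists, these cells scored highest for smooth muscle (3.47, with 6 markers found). They were left without a type name there, since their leading genes also held the myofibroblast markers *Hhip*, *Enpp2* and *Aspn*. *Ednrb* was at 935, 1453 and 1141 CPM there in RA2, RA3 and RA4 (1177 ± 261), from 25, 10 and 17 cells. Of the 52 cells, 51 had an *Ednrb* UMI and 42 had 5 or more. *Ednra* was at 198 ± 4.84 CPM, and *Edn3* had no UMI.

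Low-UMI ECs that were not given a type name (72 cells, median 863 UMIs) had *Ednrb* at 647, 874 and 889 CPM. They scored highest for the Car4-type list (1.78, with 6 markers found), but their leading genes included the B-cell genes *Igkc*, *Ighm* and *Cd79b*. An unnamed EC sub-cluster of 104 cells, which scored highest for the arterial list (1.43), had *Edn1* at 304, 390 and 501 CPM. Its leading genes held *Gja5* of that list, but also *Sftpc*, *Sftpb*, *Lyz2* and *Gzma*.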
